A study of Homo sapiens with 183 samples.

Results

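RUVBL2 was knocked out in BxPC-3, an established human pancreatic cancer line of the basal-like type, and messenger RNA was sequenced on day 5. The libraries were chosen by their labels: the 3 that carry the label sgRUVBL2 and the 4 control libraries sgRosa of the same experiment, 7 of the 183 libraries of the series. Of the 19875 gene names in the table, 12380 had a mean of at least 1 TPM (the share of a transcript among all transcripts, corrected for its length) over the 19 libraries of that experiment and were tested. With the mean taken over the 7 libraries alone, 12290 pass the same limit.

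All cells stably expressed Cas9 and received an sgRNA from a lentiviral vector with puromycin resistance. The controls thus carry Cas9 and the vector as well, with an sgRNA directed at the ROSA26 safe harbor locus. Whether that sgRNA cut the DNA of these cells was not tested. The same experiment held 4 libraries with KLF5 knocked out (sgKLF5), 4 with RUVBL1 (sgRUVBL1), 2 with CDK1 (sgCDK1) and 2 with RPA3 (sgRpa3), the last ones being losses of genes that dividing cells need. The study describes 2 sgRNAs each for RUVBL2 and ROSA26, with 2 biological replicates for each, but the labels do not tie a library to an sgRNA. Since 3 sgRUVBL2 libraries were analysed here, 1 of its sgRNAs may be represented by a single library. RNA comes from a mixed population of edited cells, not from a clone. The p-values below for BxPC-3 use the spread within groups, pooled over all 19 libraries of the experiment. They do not rest on the 7 libraries of sgRUVBL2 and sgRosa alone.

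RUVBL2 and its partner RUVBL1 are AAA+ ATPases that assemble into a joint ring. The ring is a scaffold of the chromatin remodelers INO80, SRCAP and TIP60 and, with further subunits, of the R2TP chaperone, which helps to build snoRNPs, RNA polymerase II and the PIKK kinases that include mTOR and ATM. KLF5 is a zinc finger transcription factor of epithelial cells, and the question asked of this knockout is whether KLF5-dependent genes fall when RUVBL2 is lost.

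The third sgRUVBL2 library stood apart, and many lists and calls are also given without it. It held 11788 genes at 1 TPM or more against 12188 to 12582 in the other 18 libraries, and cytosolic ribosomal protein genes took 24.18% of its transcripts against 18.77% to 21.67%. Relative to the mean of sgRosa, the median gene lay at a log2 difference of -0.235 in this library, at -0.003 in replicate 1 and at 0.093 in replicate 2. The shift grew with the GC content of the transcript, from -0.062 in the 2355 genes lowest in GC to -0.479 in the 2355 highest in GC, and it was also larger in the 2355 genes with the longest transcripts (-0.359) than in the 2355 with the shortest (-0.113). The third sgRUVBL1 library, which carries the same replicate number, was the next highest in ribosomal share (21.67%). Whether RNA quality or library preparation differed was not tested.

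**Figure D1:**
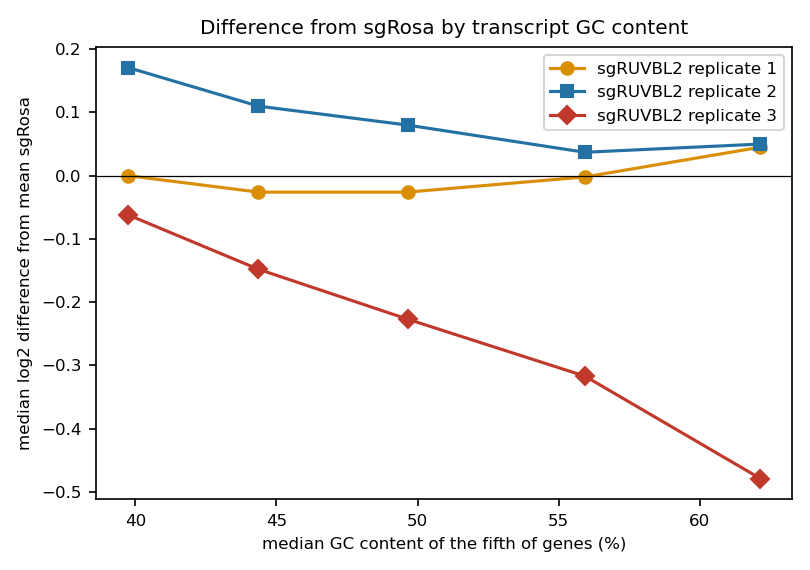
Median log2 difference of each sgRUVBL2 library from the mean of the 4 sgRosa libraries (y axis) for 5 equal bins of genes ordered by the median GC content of their transcripts in percent (x axis), with 1 line for each library. Replicate 3 falls from -0.062 to -0.479 along the axis, while replicates 1 and 2 stay between -0.026 and 0.171.

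The cells were epithelial in every library. EPCAM lay between 133 and 169 TPM, KRT8 between 3421 and 4293 TPM and the basal keratin KRT17 between 6676 and 8600 TPM. Of the defining markers of other cell types, 5 of 8 fibroblast genes, 2 of 6 leukocyte genes, 1 of 4 endothelial genes and 3 of 4 acinar genes stayed under 1 TPM in all 7 libraries, CPA1 and CELA3A were listed at 0 in all of them, and the highest of the rest was CDH5 at 11.4 TPM. The sum of the 6 leukocyte genes lay between 4.43 and 5.72 TPM in sgRosa and between 7.30 and 9.33 TPM in sgRUVBL2, with CD3E called higher, and that of the 4 endothelial genes between 7.87 and 8.46 TPM and between 9.11 and 13.8 TPM. Their part in the results was not tested.

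RUVBL2 messenger RNA itself was lower in all sgRUVBL2 libraries. The 4 sgRosa libraries held 216, 256, 209 and 206 TPM, and the 3 sgRUVBL2 libraries 128, 74.5 and 80.05 TPM. The groups do not overlap, and the first sgRUVBL2 library kept more of the transcript than the other 2. The fold change was -1.27 on the log2(TPM + 1) scale (SE 0.13, limma with Benjamini-Hochberg adjusted p = 0.0001), or 2.41-fold lower, and -1.17 without replicate 3 (limma adjusted p = 0.000488). In sgRUVBL1 and sgKLF5 the RUVBL2 fold changes against sgRosa were -0.10 and 0.02. Edited transcripts that escape decay are counted as well, so the level of the messenger RNA does not give the level of the protein.

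RUVBL1, the partner subunit, held 126, 119, 102 and 99.95 TPM in sgRosa and 97.0, 92.5 and 88.5 TPM in sgRUVBL2. Its fold change was -0.26 (limma adjusted p = 0.0472), and without replicate 3 it was -0.23 and no longer past the threshold (limma adjusted p = 0.122). KLF5 did not pass the test, with 344, 308, 354 and 336 TPM in sgRosa and 297, 357 and 246 TPM in sgRUVBL2 (log2 fold change -0.17, limma adjusted p = 0.255). SERPINB5, the gene whose protein the study uses as a reporter of KLF5 activity, held 276, 257, 269 and 267 TPM in sgRosa and 236, 285 and 288 TPM in sgRUVBL2, and the control range lies inside that of the knockout (log2 fold change 0.01, SE 0.08, limma adjusted p = 0.963). In sgKLF5 it lay between 170 and 223 TPM, and the direct contrast of sgRUVBL2 with sgKLF5 gave 0.47 for SERPINB5 (limma adjusted p = 0.000212).

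**Figure D2:**
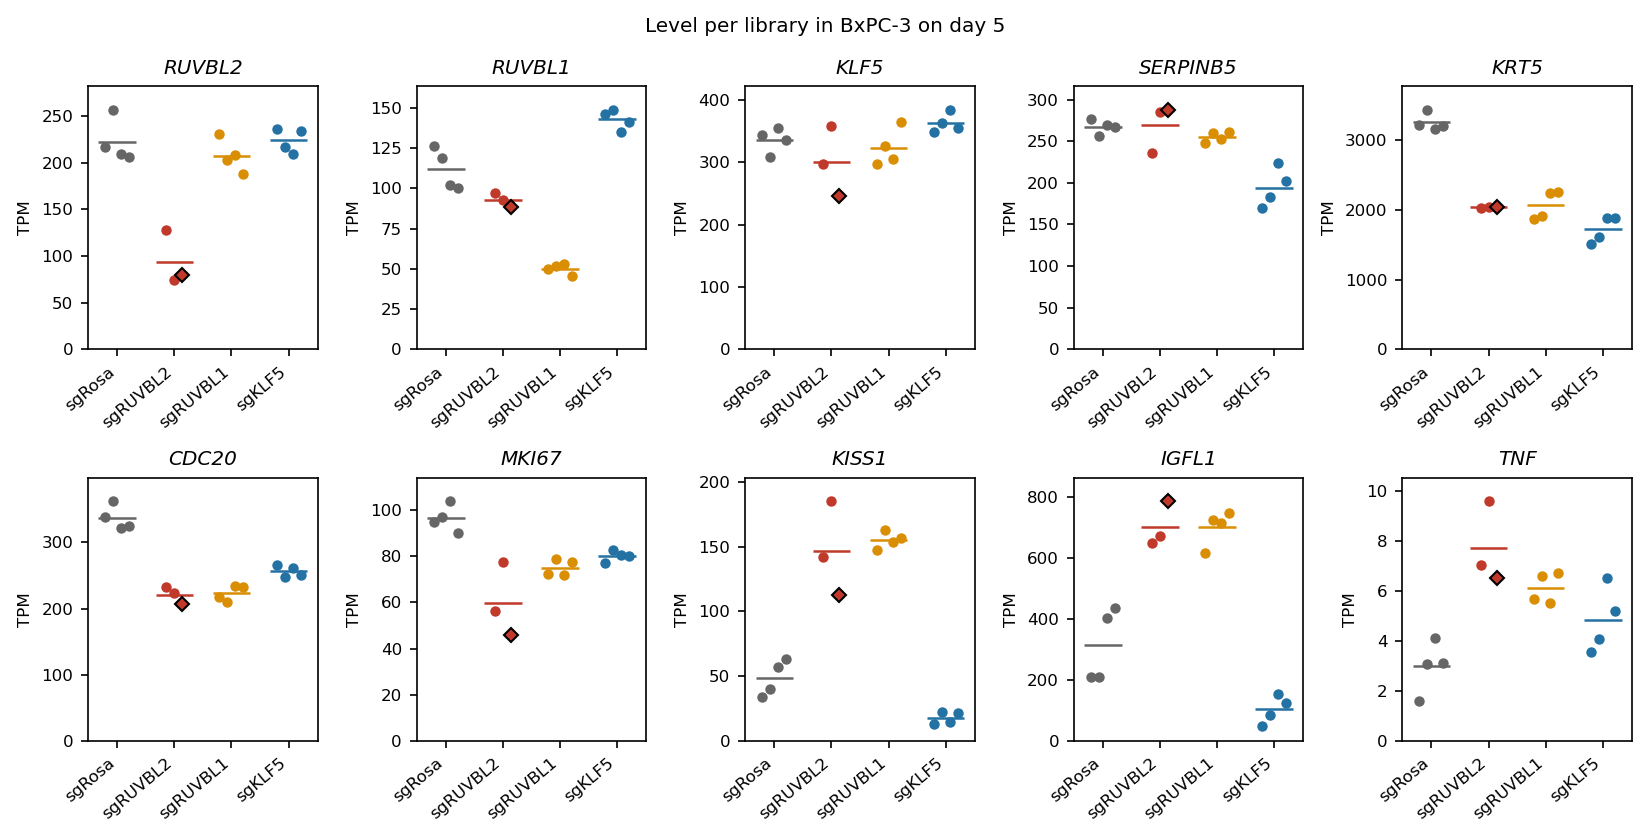
TPM (y axis, from 0) of 10 genes in the single libraries of sgRosa, sgRUVBL2, sgRUVBL1 and sgKLF5, with a bar at the mean of each group and the third sgRUVBL2 library as a diamond. RUVBL2 is lowest in sgRUVBL2, KRT5 and CDC20 are lower in all 3 knockouts, and KISS1 and IGFL1 are higher in sgRUVBL2 and sgRUVBL1 and lower in sgKLF5.

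Across all genes, 1208 of 12380 passed the threshold of 0.05 in sgRUVBL2 against sgRosa (9.76%), 529 higher (4.27%) and 679 lower (5.48%), and 3380 had an unadjusted p under 0.05. The median fold change of all genes tested was -0.057. Without replicate 3, 907 of 12404 passed (7.31%), 603 higher (4.86%) and 304 lower (2.45%), so the balance of the directions depends on that library. It depends on others too, with 441 higher and 393 lower without sgRosa replicate 1. Without sgRUVBL2 replicate 2, 465 were higher and 1817 lower. Both fits call 655 genes, 385 of them higher and 270 lower in each fit. With the libraries scaled by the median of ratios, 1734 passed, 939 higher and 795 lower, which moves the share of higher calls from 43.79% to 54.15%. A fit of the 7 libraries alone called 1 gene, which was lower, with 1844 at an unadjusted p under 0.05, and without replicate 3 as well it called 87. Every call against sgRosa, above and below, therefore rests on the spread shared by the 6 groups of the experiment.

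**Figure D3:**
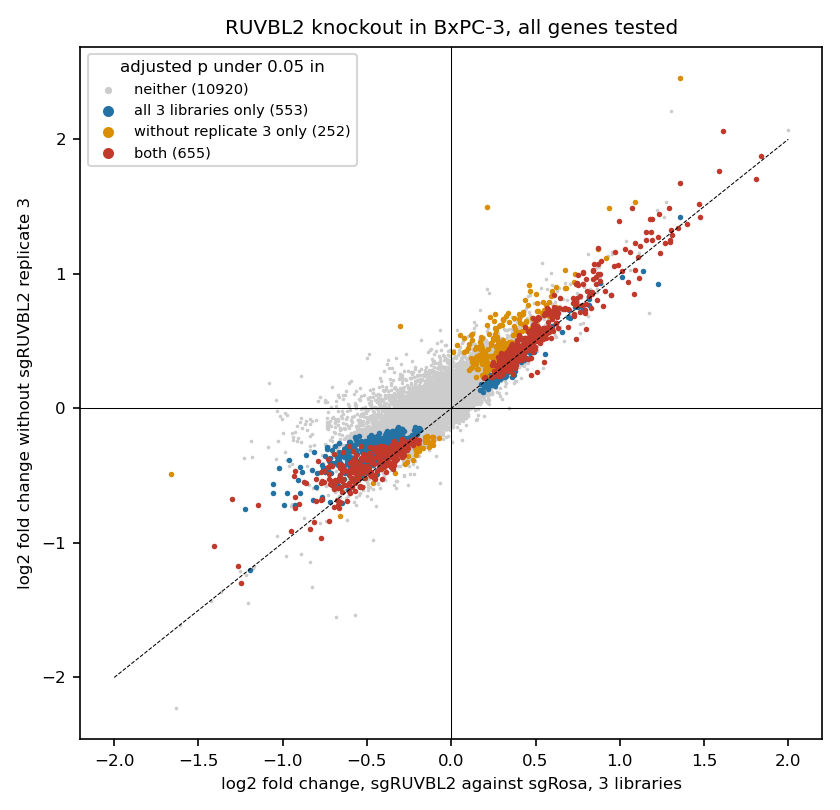
Log2 fold change of each tested gene in sgRUVBL2 against sgRosa with all 3 knockout libraries (x axis) and without replicate 3 (y axis), colored by the fit in which the gene has an adjusted p under 0.05. The fits share 655 genes, 553 are called with all 3 libraries alone and 252 without replicate 3 alone, and most of the cloud left of 0 lies above the dashed line of equal values.

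Genes of mitosis and of DNA replication were lower as groups. Of 37 tested genes of mitosis and the G2/M phase, 21 were lower, none was higher and 16 did not pass, with a median log2 fold change of -0.29 (all genes: -0.06, 5.48% lower). Of 40 genes of DNA replication, 18 were lower, none was higher and 22 did not pass, with a median of -0.35. Without replicate 3 the counts were 15 of 37 and 10 of 40, beside 2.45% of all genes lower. The medians were -0.28 and -0.29 against 0.042 for all genes. The median of the mitosis genes, relative to the mean of sgRosa, was -0.30, -0.23 and -0.32 in the 3 libraries taken singly. In the sgRosa libraries it lay between -0.044 and 0.096. That of the replication genes was -0.215, -0.378 and -0.548, against 0.233, 0.149, -0.152 and -0.218 in the 4 sgRosa libraries. For the replication genes the first knockout library thus lay within the range of the controls. A further list, homologous recombination and the Fanconi pathway, had 5 of 21 genes lower, and 1 lower without replicate 3 (all genes: 5.48% and 2.45%). In RNA from whole cultures, fewer dividing cells and less of these transcripts in each cell cannot be told apart.

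Promoters of these groups are shown for 8 members that fell, with and without the letters searched. The windows hold the 160 bases before the transcription start in RefSeq on GRCh38.p14, read on the strand of the gene, 5′ to 3′. They lie at chr10:128126424-128126583 (minus strand) for MKI67, chr16:23678729-23678888 (plus) for PLK1, chr1:43358821-43358980 (plus) for CDC20, chr5:138178952-138179111 (plus) for KIF20A, chr12:132687343-132687502 (minus) for POLE, chr22:19479760-19479919 (plus) for CDC45, chr19:50384163-50384322 (plus) for POLD1 and chr19:48170345-48170504 (minus) for LIG1. The windows of POLD1 and LIG1 hold none of the letters described next, nor does that of CDC25B, a mitosis gene that is not shown. That of ORC1, also not shown, holds CCAAT. Capitals mark the NF-Y box CCAAT, the cell cycle homology region element TTTGAA and the E2F-type letters TTTNGCGC, each on either strand, and marks that touch or overlap run together.
MKI67: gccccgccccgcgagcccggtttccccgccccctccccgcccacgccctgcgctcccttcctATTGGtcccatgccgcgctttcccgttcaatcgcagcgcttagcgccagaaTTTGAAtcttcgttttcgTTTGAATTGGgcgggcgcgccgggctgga
PLK1: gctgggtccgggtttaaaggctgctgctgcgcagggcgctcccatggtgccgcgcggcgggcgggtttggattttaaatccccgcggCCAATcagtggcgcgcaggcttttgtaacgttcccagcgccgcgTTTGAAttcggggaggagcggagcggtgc
CDC20: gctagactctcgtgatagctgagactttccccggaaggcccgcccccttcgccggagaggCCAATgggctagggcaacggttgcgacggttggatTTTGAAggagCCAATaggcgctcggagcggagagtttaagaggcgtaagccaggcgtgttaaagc
KIF20A: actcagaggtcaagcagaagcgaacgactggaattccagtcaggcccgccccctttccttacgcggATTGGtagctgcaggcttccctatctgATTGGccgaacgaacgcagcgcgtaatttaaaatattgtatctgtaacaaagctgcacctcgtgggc
POLE: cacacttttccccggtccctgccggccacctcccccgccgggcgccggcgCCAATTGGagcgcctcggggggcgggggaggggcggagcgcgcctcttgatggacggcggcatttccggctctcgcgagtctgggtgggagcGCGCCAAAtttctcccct
CDC45: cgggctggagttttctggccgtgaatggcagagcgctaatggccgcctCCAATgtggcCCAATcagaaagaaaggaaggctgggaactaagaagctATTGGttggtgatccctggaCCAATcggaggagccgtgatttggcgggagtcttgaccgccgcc
POLD1: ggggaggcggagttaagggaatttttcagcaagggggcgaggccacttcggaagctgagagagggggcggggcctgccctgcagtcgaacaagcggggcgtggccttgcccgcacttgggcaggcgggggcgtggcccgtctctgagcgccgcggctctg
LIG1: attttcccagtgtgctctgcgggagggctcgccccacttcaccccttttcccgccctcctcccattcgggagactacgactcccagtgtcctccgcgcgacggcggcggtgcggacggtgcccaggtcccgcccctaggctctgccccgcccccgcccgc
In the windows from 250 bases before to 50 bases after the start, TTTGAA was found in 22 of the 31 mitosis genes with a promoter in the RefSeq table (71.0%), in 1 of 33 replication genes (3.03%) and in 15.4% of all 27305 promoters. The E2F-type letters were found in 2 of 31 mitosis genes, in 15 of 33 replication genes (45.5%) and in 1.83% of all promoters. CCAAT was found in 23 of 31 (74.2%) and 19 of 33 (57.6%), against 35.7% of all. Among the 9620 tested genes with a promoter, the shares were 9.73% for TTTGAA, 3.06% for the E2F-type letters and 36.8% for CCAAT. Within the mitosis list TTTGAA was found in 11 of the 18 genes that were lower and in 11 of the 13 that did not pass, so its presence did not mark the genes that fell. These are matches of letters and not sites of binding.

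CDC20, the activator of the anaphase-promoting complex, held 338, 362, 322 and 324 TPM in sgRosa and 233, 224 and 206 TPM in sgRUVBL2. All 3 knockout libraries lie far below the controls and close to each other (log2 fold change -0.60, SE 0.06, limma adjusted p = 0.0001, and -0.56 without replicate 3). KIF20A, a kinesin of cytokinesis, fell from 78.2, 75.8, 87.6 and 85.6 TPM to 43.9, 54.1 and 52.6 TPM (-0.70, limma adjusted p = 0.00187). MKI67, which encodes the proliferation marker Ki-67, fell from 94.9, 96.9, 104 and 90.1 TPM to 56.2, 77.4 and 45.8 TPM, with replicate 3 lowest (-0.71, limma adjusted p = 0.00665). PLK1, a kinase of mitotic entry, fell by 0.64 on the log2 scale, and by 0.32 without replicate 3. FOXM1, the transcription factor of the mitotic program, held 60.6, 59.8, 51.9 and 44.9 TPM in sgRosa and 40.1, 42.4 and 11.5 TPM in sgRUVBL2. Its fold change of -0.96 passed the test with replicate 3 (limma adjusted p = 0.0419) and did not at -0.38 without it (limma adjusted p = 0.107).

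Among the replication genes, POLD1, the catalytic subunit of polymerase delta, held 74.3, 73.1, 58.8 and 64.3 TPM in sgRosa and 48.6, 43.3 and 28.5 TPM in sgRUVBL2 (-0.77, limma adjusted p = 0.00276). LIG1, the ligase that joins Okazaki fragments, fell by 0.72 and CDC45, a subunit of the replicative helicase, by 0.67. All 3 kept their calls without replicate 3. POLE, the catalytic subunit of polymerase epsilon, fell by 0.76 with replicate 3 and gave -0.44 without it (limma adjusted p = 0.0587). The largest fall on this list was that of GINS4 (-0.80), whose levels of 12.6, 10.1, 7.01 and 7.86 TPM in sgRosa and 5.41, 6.16 and 3.29 TPM in sgRUVBL2 are low, and it did not pass without replicate 3 either (limma adjusted p = 0.0709).

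The values of these cell cycle lists in the other knockouts stand beside those of sgRUVBL2, all set against the shared sgRosa libraries. Over all genes the shares higher and lower were 8.29% and 7.67% in sgRUVBL1, 21% and 13.6% in sgKLF5, 3.71% and 2.12% in sgCDK1 (5.82% in either direction) and 9.12% and 11.6% in sgRpa3. By these fits, the mitosis list had 29 of 37 genes lower in sgRUVBL1 (median -0.36), 11 lower in sgKLF5 (-0.16) and 26 lower in sgRpa3 (-0.45), while in sgCDK1 15 were higher and 1 was lower (0.33). The replication list had 17 of 40 lower in sgRUVBL1 (-0.34) and 34 lower in sgRpa3 (-0.65), while 30 were higher in sgKLF5 (0.44) and 4 in sgCDK1 (0.21), with none lower in either. The direct contrast of sgRUVBL2 with sgKLF5 uses no control library and called 38 of the 40 replication genes lower in sgRUVBL2 and none higher (median -0.84, against a background of 26.4% lower). In T3M-4 and AsPC-1, which share no library with BxPC-3, RUVBL2 knockout lowered 35 of 37 and 15 of 37 mitosis genes and 33 of 40 and 16 of 40 replication genes, where 15.2% and 11% of all genes were lower.

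**Figure D4:**
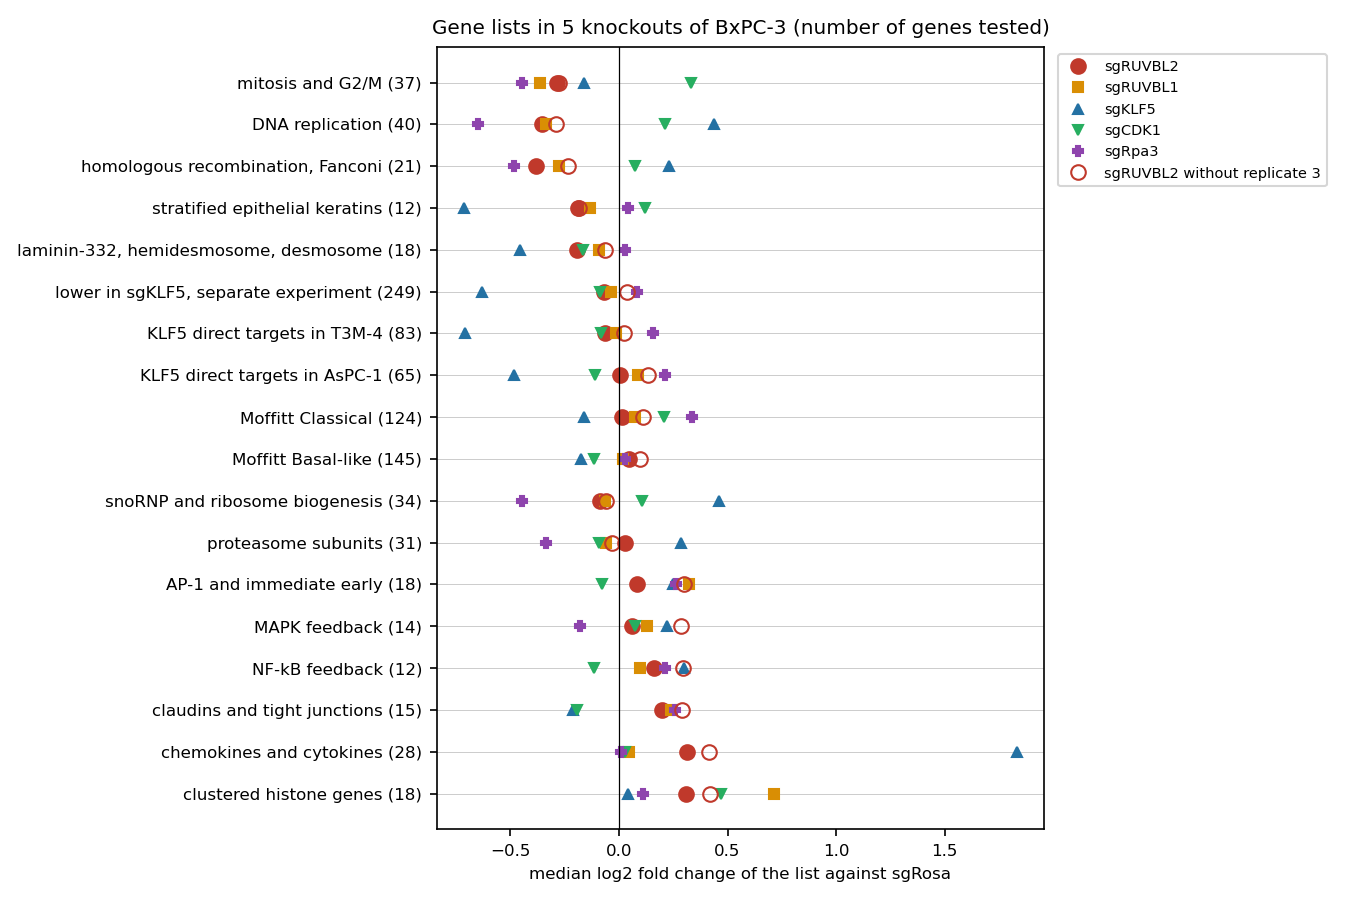
Median log2 fold change against sgRosa (x axis) of 18 gene lists (rows, with the number of genes tested) in the 5 knockouts of BxPC-3, with open circles for sgRUVBL2 without replicate 3. All knockouts are set against the same 4 sgRosa libraries. The mitosis, replication and recombination lists lie left of 0 in sgRUVBL2, sgRUVBL1 and sgRpa3, and the lists of KLF5-dependent genes lie near 0 in sgRUVBL2 and far to the left in sgKLF5.

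KLF5-dependent genes were called in both directions in sgRUVBL2. The list was taken from a separate BxPC-3 experiment, with 4 sgKLF5, 2 sgRosa and 2 sgRpa3 libraries of its own, as the 250 genes with the lowest p among those lower in sgKLF5. Of the 249 that were tested here, 24 were lower in sgRUVBL2, 23 were higher and 202 did not pass, with a median log2 fold change of -0.07 beside -0.06 for all genes, of which 5.48% were lower and 4.27% higher. Without replicate 3, 7 were lower and 26 higher, with a median of 0.04 (all genes: 0.042, 2.45% lower and 4.86% higher). In the sgKLF5 libraries of the same experiment as sgRUVBL2, 188 of these genes were lower and 22 higher, with a median of -0.63 (all genes: 13.6% and 21%). The direct contrast of sgRUVBL2 with sgKLF5 called 170 of them higher in sgRUVBL2 and 20 lower (median 0.57, background 13.6% higher and 26.4% lower). The 250 genes with the lowest p among those higher in sgKLF5 in the separate experiment were counted too. Of the 210 tested here, 30 were higher in sgRUVBL2 and 4 lower (median 0.14, all genes: 4.27% and 5.48%). Without replicate 3, 36 of 211 were higher and 2 lower (all genes: 4.86% and 2.45%). In the sgKLF5 libraries here, 154 of the 210 were higher and 5 lower. The direct contrast called 143 lower in sgRUVBL2 and 15 higher.

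Direct KLF5 target lists were drawn by the study from newly made RNA (SLAM-seq) after KLF5 degradation in the other lines. Of the T3M-4 list, 5 of 83 genes were higher and 7 lower in sgRUVBL2 (median -0.06, all genes: 4.27% and 5.48%), and without replicate 3 the counts were 12 higher and 2 lower. Of the AsPC-1 list, 2 of 65 were higher and 2 lower (median 0.01), and without replicate 3 the counts were 8 and 0 (median 0.13, all genes: 4.86% and 2.45%). In sgKLF5, 67 of 83 and 46 of 65 genes of these lists were lower (all genes: 13.6%). Members moved in opposite directions in the RUVBL2 knockout. SYT8, a synaptotagmin family member, had a fold change of -0.69 (limma adjusted p = 0.0432) and the chloride channel ANO1 one of -0.63 (limma adjusted p = 0.0407), and neither passed without replicate 3. IGFL1, an insulin growth factor-like secreted protein, held 209, 211, 404 and 437 TPM in sgRosa, 652, 674 and 787 TPM in sgRUVBL2 and 49.3, 83.8, 155 and 126 TPM in sgKLF5, so it lay above the controls in the RUVBL2 knockout and below them in that of KLF5.

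KISS1, which encodes the precursor of kisspeptin, lay on opposite sides of the controls in the same way. It held 33.6, 39.9, 57.3 and 63.1 TPM in sgRosa, 142, 185 and 112 TPM in sgRUVBL2, 147, 163, 153 and 157 TPM in sgRUVBL1 and 12.9, 22.03, 14.9 and 21.8 TPM in sgKLF5. No knockout group overlaps the controls. Its fold change was 1.59 in sgRUVBL2 (SE 0.20, limma adjusted p = 0.000681) and -1.38 in sgKLF5, and the direct contrast gave 2.97 (limma adjusted p = 8.97e-09). It also rose with RUVBL2 knockout in T3M-4 (2.05) and AsPC-1 (2.47).

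Basal-like identity genes were lower in part. Of the 7 basal-like markers 3 were lower and 4 did not pass the threshold (all genes: 5.48% lower). Without replicate 3, 2 were lower (all genes: 2.45%). Of 24 cornified envelope genes, another squamous list, SPRR3 was higher and none was lower (median 0.30, all genes: -0.06 and 4.27% higher). None of these 24 passed without replicate 3. KRT5, a keratin of basal epithelial cells, held 3224, 3436, 3164 and 3205 TPM in sgRosa and 2022, 2040 and 2049 TPM in sgRUVBL2. The 3 knockout values lie close together and far below the lowest control (log2 fold change -0.68, SE 0.08, limma adjusted p = 0.000445, and the same without replicate 3). In sgKLF5 KRT5 lay between 1508 and 1886 TPM, and the direct contrast of 0.25 passed the threshold (limma adjusted p = 0.0208). KRT6A, whose reads can be shared with its near-identical paralogs, fell by 0.48 (limma adjusted p = 0.00834), and it missed the threshold after median-of-ratios scaling (limma adjusted p = 0.0505). COL17A1, the hemidesmosomal collagen, held 408, 389, 408 and 406 TPM in sgRosa and 330, 360 and 210 TPM in sgRUVBL2, and its call (-0.46, limma adjusted p = 0.041) was lost without replicate 3 (limma adjusted p = 0.174).

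The other basal-like markers did not pass the test. KRT14 had a log2 fold change of -0.17 in sgRUVBL2 and -1.22 in sgKLF5, KRT17 -0.17 and -0.77, TP63 -0.37 and -0.52, and S100A2 -0.23 and 0.23. Among the broader Moffitt signatures, which the study compiled from human tumors, 15 of 145 Basal-like genes were higher and 7 lower (median 0.05), and 9 of 124 Classical genes were higher and 6 lower (median 0.01), beside 4.27% higher and 5.48% lower of all genes. Without replicate 3 these counts were 17 and 3, and 13 and 5, beside 4.86% and 2.45%. COL7A1, the anchoring fibril collagen, was the Basal-like gene with the largest fall (-0.93, limma adjusted p = 0.0192) and LEMD1 the one with the largest rise (1.23, limma adjusted p = 0.0466, and 0.162 without replicate 3). On the Classical list, CEACAM7 rose by 1.31, the neuropeptide precursor TAC3 by 1.3 and the transmembrane mucin MUC13 by 1.22, while HHLA2 fell by 1.3. MUC13 lay between 14 and 26.9 TPM in sgRosa and held 46.4, 56.9 and 46.1 TPM in sgRUVBL2. Of the 11 classical markers tested, only VSIG2 passed the test (0.46, limma adjusted p = 0.0162).

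Cytokine genes were higher as a group, by amounts that differed between the libraries. Relative to the mean of sgRosa, the median of the list was 0.76, 0.314 and 0.158 in the 3 sgRUVBL2 libraries. In the sgRosa libraries it lay between -0.118 and 0.1. Of 28 chemokine and cytokine genes, 7 were higher and none lower, with a median log2 fold change of 0.31 (all genes: -0.06, 4.27% higher). Without replicate 3, 12 were higher with a median of 0.41 (all genes: 0.042, 4.86% higher). CXCL8, the neutrophil chemokine interleukin-8, held 15.1, 10.5, 24.9 and 15.4 TPM in sgRosa and 44.9, 38.0 and 41.8 TPM in sgRUVBL2, with no overlap (1.34, SE 0.20, limma adjusted p = 0.00129). IL6, a cytokine of the acute phase response, rose by 1.19 and TNF, an activator of NF-kB, by 1.16, both from levels under 5 TPM. IL1B, a pyrogenic cytokine, lay between 157 and 168 TPM in sgRosa and held 244, 228 and 226 TPM in sgRUVBL2 (0.54, limma adjusted p = 0.00737). IL1A rose by 0.39 and the chemokine CXCL5 by 0.78. CXCL1 did not pass with replicate 3 (0.60, limma adjusted p = 0.0809) and did so without it (0.87, limma adjusted p = 0.0121). The remaining call of the list was IL32, which was lost without replicate 3 (limma adjusted p = 0.0801).

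The cytokine list was far higher in sgKLF5, where 24 of 28 genes were higher with a median of 1.83 (all genes: 21% higher). The direct contrast called 21 lower and 3 higher in sgRUVBL2 (all genes: 26.4% and 13.6%). In sgRUVBL1 2 were higher (median 0.04, all genes: 8.29% higher). The direct contrast with sgRUVBL1 called none of the 28, and that of CXCL8 was 1.03 (limma adjusted p = 0.102). In T3M-4, 21 of 26 tested members were higher with RUVBL2 knockout, where 39.3% of all genes were higher. In AsPC-1, 7 of 17 were higher, where 32.2% of all genes were.

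Genes that inflammatory and mitogenic signals induce were tested as 4 lists, beside 4.27% of all genes higher, or 4.86% without replicate 3. Of 12 NF-kB feedback genes, 4 were higher and none lower (6 without replicate 3). These were ICAM1, a leukocyte adhesion receptor (0.62), BIRC3, an inhibitor of apoptosis (0.58), and the NF-kB inhibitors NFKBIE (0.44) and NFKBIA (0.31). Of 14 MAPK feedback genes, the phosphatases DUSP5 (0.56), DUSP1 (0.50) and DUSP6 (0.42) were higher and none was lower (6 higher without replicate 3). Of 18 AP-1 and immediate early genes, MAFF (0.52) and IER5 (0.40) were higher (6 without replicate 3). The median fold changes of the NF-kB, MAPK and AP-1 lists were 0.163, 0.06 and 0.085 (all genes: -0.057). In replicates 1 and 2 taken singly the medians of these lists lay between 0.245 and 0.437. In replicate 3 they lay between -0.288 and -0.229, where the median gene lay at -0.235. The surface receptor PLAUR rose from 227, 231, 248 and 239 TPM to 408, 333 and 319 TPM (0.57, limma adjusted p = 0.00135), and the matrix protease MMP7 rose by 0.77. Of the 15 matrix protease and plasminogen genes tested, 3 were higher and none lower (5 higher without replicate 3).

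Tight junction genes were higher in 4 of 15 cases and lower in none, with a median of 0.20 (all genes: -0.06, 4.27% higher). Without replicate 3, 5 of 15 were higher (all genes: 4.86%). OCLN, which encodes occludin, rose from 34.7, 36.9, 40.6 and 44.6 TPM to 48.2, 77.7 and 59.2 TPM (0.62, limma adjusted p = 0.0118). CLDN23 rose by 0.52 and CLDN12 by 0.27. CLDN3 rose by 0.95, but sgRosa replicates 3 and 4 (30.1 and 25.5 TPM) lay above replicates 1 and 2 (11.8 and 15.1 TPM), close to the lowest knockout library (30.2 TPM), and the call was lost without sgRUVBL2 replicate 3 (limma adjusted p = 0.0914).

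Among cell cycle arrest and death regulators, CDKN1A, the cyclin-dependent kinase inhibitor p21, held 145, 149, 156 and 151 TPM in sgRosa and 223, 211 and 191 TPM in sgRUVBL2 (0.46, limma adjusted p = 0.0114). GDF15, a stress-induced cytokine, was higher (0.96) and DDB2, a damage recognition protein, was lower (-0.48). CDKN1A, GDF15 and DDB2 were the only calls among 24 p53 target genes tested, and 21 did not pass (all genes: 4.27% higher and 5.48% lower). Without replicate 3, 4 of the p53 target genes were higher and 1 was lower (all genes: 4.86% and 2.45%). Of 16 BCL2 family genes, the BH3-only gene PMAIP1 (0.60), the survival factor BCL2L1 (0.51) and BAD (0.38) were higher (all genes: 4.27%). Of 25 genes of the integrated stress and unfolded protein responses, CHAC1 (1.012) and TRIB3 (0.45) were higher. The lumenal chaperone CALR (-0.36) and CRELD2 (-0.40) were lower (all genes: 4.27% higher and 5.48% lower). Without replicate 3, 6 of the 25 were higher and 1 lower (all genes: 4.86% and 2.45%), and CRELD2 did not pass (limma adjusted p = 0.103).

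Genes of the complexes that RUVBL2 helps to assemble are set beside 4.27% of all genes higher and 5.48% lower. Of 31 subunits of INO80, SRCAP and TIP60, ZNHIT1 and EPC2 were higher and none was lower (median 0.05). Of 16 subunits of RNA polymerase II, POLR2C and POLR2L were higher. None of these 4 calls was made without replicate 3. Of 34 snoRNP and ribosome biogenesis genes, NOP58 (0.43) and ZNHIT3 were higher and FBL (-0.29) and NOP2 (-0.44) lower. Of these, ZNHIT3 and NOP2 did not pass without replicate 3 (limma adjusted p = 0.136 and 0.0994). In sgKLF5, 25 of the 34 genes were higher (all genes: 21%). Of the 16 R2TP and TTT genes, ECD was higher at 0.27 and the others past the threshold were RUVBL1 and RUVBL2. Without replicate 3 only RUVBL2 passed (ECD: 0.29, limma adjusted p = 0.0545). Of the 6 PIKK kinase genes, MTOR (-0.49) and PRKDC (-0.45) were lower with replicate 3 and neither was without it (-0.33 and -0.27, limma adjusted p = 0.122 and 0.206). The remaining ATM, ATR, SMG1 and TRRAP gave -0.42, -0.18, -0.06 and -0.42 and did not pass.

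Clustered histone genes were higher in 4 of 18 cases and lower in none, with a median of 0.31 (all genes: -0.06, 4.27% higher). The same number was higher without replicate 3 (all genes: 4.86%). HIST1H2BD rose from 50.3, 47.9, 58.5 and 52.7 TPM to 93.3, 85.1 and 120 TPM (0.90, limma adjusted p = 0.00103). HIST2H4B rose by 0.86, and its identical copy HIST2H4A holds the same values, so the 4 calls are 3 distinct measurements. Libraries from poly-A selected RNA hold few of the transcripts of these genes, most of which end in a stem loop. Among the antigen presentation genes, B2M, the light chain of MHC class I, rose from 4071, 3769, 4101 and 4141 TPM to 5995, 4966 and 5596 TPM (0.45, limma adjusted p = 0.000844) and HLA-E rose by 0.46, while TAP2 was lower (-0.35) and did not pass without replicate 3 (-0.20, limma adjusted p = 0.172). Of 34 interferon-stimulated genes only ISG20 (0.80) and IFIT2 (0.48) passed the test, and of 29 genes of cholesterol and fatty acid synthesis FASN (-0.81), FADS1 (-0.56) and LSS (-0.39) were lower, of which FADS1 kept its call without replicate 3. No member of the lists of KLF family factors (14 genes), basal and squamous transcription factors (16), S100 proteins (14) and nonsense-mediated decay factors (11) passed, and without replicate 3 1 KLF family gene was higher. Of 68 respiratory chain genes 6 were lower, of 74 mitochondrial ribosomal protein genes 5 were lower, of 79 cytosolic ribosomal protein genes 2 were higher and of 28 lysosomal genes 4 were higher and 1 lower. Without replicate 3, 13 respiratory chain and 3 mitochondrial ribosomal genes were lower, 1 cytosolic ribosomal gene was higher and 4 were lower, and 7 lysosomal genes were higher. The shares over all genes were 4.27% higher and 5.48% lower with replicate 3, and 4.86% and 2.45% without it.

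By the size of the change alone, the 12 largest rises among genes with at least 5 TPM in either group and no overlap of the libraries were KRT81, IL20, CST1, KISS1, RND1, ENKUR, NNMT, CXCL8, STEAP4, CEACAM7, KRT86 and CST2, with log2 fold changes from 1.84 to 1.29. In all, the 3 knockout libraries lay above all 4 controls in 828 genes (6.69%) and below them in 1091 (8.81%). KRT81 and KRT86, hair keratins whose reads can be shared, held 0.672 to 4.16 TPM and 1.26 to 1.86 TPM in sgRosa and 9.96 to 11.3 TPM and 5.11 to 5.98 TPM in sgRUVBL2. IL20, a cytokine of the interleukin-10 family, rose from 1.72, 1.54, 4.04 and 4.96 TPM to 6.61, 19.03 and 14.3 TPM. RND1, a small GTPase, rose from 11.6, 12.98, 26.1 and 30.4 TPM to 51.0, 52.6 and 58.0 TPM. NNMT, which methylates nicotinamide, rose by 1.4, and the cystatins CST1 and CST2, which are paralogs, by 1.61 and 1.29. All 12 were also called without replicate 3, and in 9 of the 12 sgRosa replicates 3 and 4 both lay above replicates 1 and 2, as against 3434 of all 12380 genes. The 10 that were tested in T3M-4 and the 4 that were tested in AsPC-1 were all higher with RUVBL2 knockout there. Of all genes, 39.3% and 32.2% were higher in these lines.

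The 12 largest falls by the same rule were ABO, HHLA2, RUVBL2, LOC101927572, C6orf99, HTD2, PEG10, RMDN2, PLA2G4B, FOXM1, CAD and RAB26, with log2 fold changes from -1.41 to -0.93. Replicate 3 was the lowest knockout library in 9 of the 12, as in 8413 of all 12380 genes, and 7 of the 12 were called without it. ABO, the blood group glycosyltransferase, held 25.7, 31.7, 31.1 and 27.5 TPM in sgRosa and 10.5, 17.9 and 5.57 TPM in sgRUVBL2. PEG10, an imprinted gene of retrotransposon origin, held 43.1, 35.9, 30.2 and 30.5 TPM in sgRosa and 21.96, 19.3 and 7.86 TPM in sgRUVBL2 (-1.15, limma adjusted p = 0.00579, and -0.72 without replicate 3). CAD, the enzyme that starts pyrimidine synthesis, held 30.1, 32.3, 30.1 and 30.0 TPM in sgRosa and 18.9, 24.1 and 8.09 TPM in sgRUVBL2. RAB26, a vesicle GTPase, fell by 0.93 and also fell in T3M-4 (-0.38) and AsPC-1 (-1.02). HTD2 and PLA2G4B share transcripts with a neighboring gene, so their reads are uncertain. Of the 12, 4 were lower in T3M-4 and 4 in AsPC-1, where 15.2% and 11% of all genes were lower. The targeted gene RUVBL2 is 1 of the 4 in each line.

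**Figure D5:**
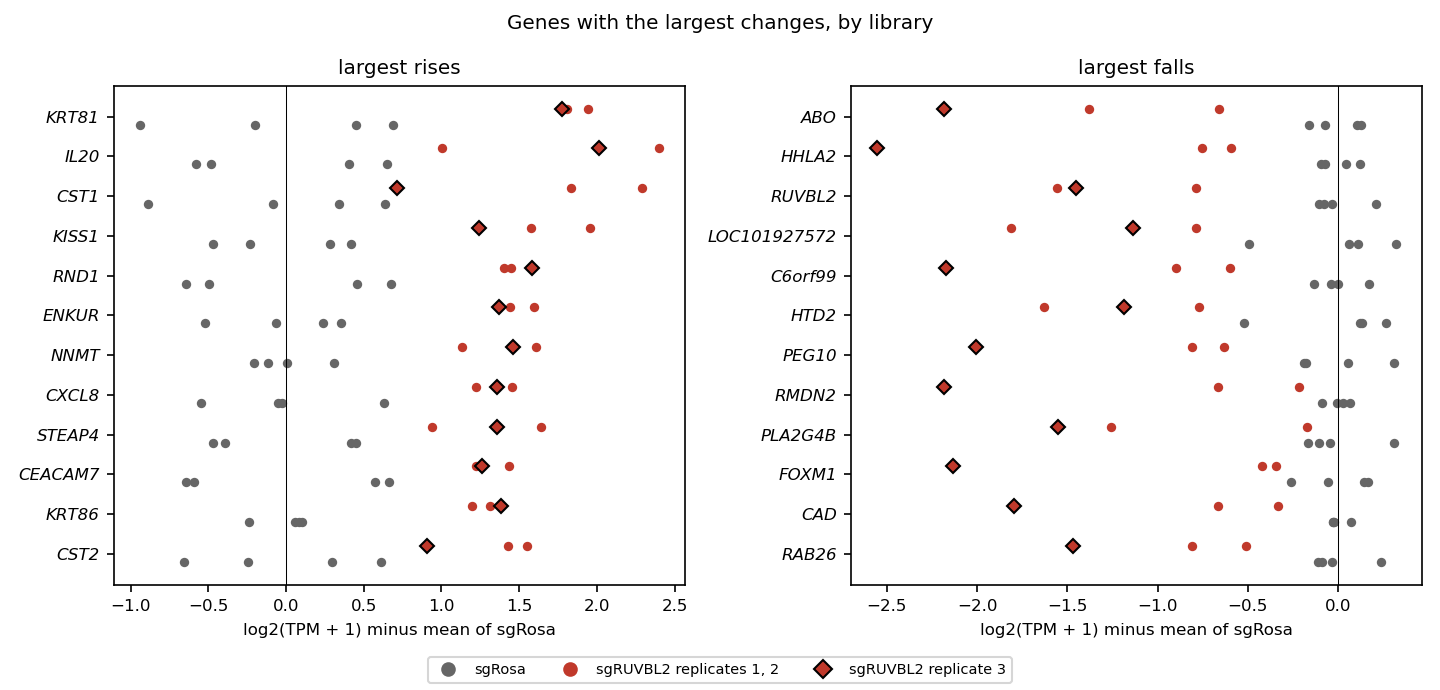
Log2(TPM + 1) of each library minus the mean of the 4 sgRosa libraries (x axis) for the 12 genes with the largest rise (left) and the 12 with the largest fall (right), with sgRosa in gray, sgRUVBL2 in red and its replicate 3 as a diamond. For the rises the 3 knockout libraries lie close together in most genes, and for the falls replicate 3 is farthest from the controls in 9 of 12.

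Against sgRUVBL1, the knockout of the partner, 4 genes passed the threshold (0.0323%) and 1719 had an unadjusted p under 0.05. RUVBL1 was higher in sgRUVBL2 (0.88, limma adjusted p = 2.58e-05) and RUVBL2 was lower (-1.17, limma adjusted p = 0.00033), as the targeted genes. CCDC134 held 2.59, 2.76 and 2.89 TPM in sgRUVBL2 and 4.81 to 5.55 TPM in sgRUVBL1, with 4.04 to 5.36 TPM in sgRosa (-0.72 against sgRUVBL1, limma adjusted p = 0.00976). NIT2, an omega-amidase, held 80.7, 80.9 and 80.3 TPM in sgRUVBL2 and 57.2 to 67.2 TPM in sgRUVBL1, with 73.9 to 80.9 TPM in sgRosa (0.37, limma adjusted p = 0.0219, and 0.0551 with the replicate number as a block). So CCDC134 lay below sgRosa in sgRUVBL2, and NIT2 lay below it in sgRUVBL1. Their calls were lost when single libraries were left out, that of NIT2 without sgRUVBL2 replicates 1 or 3 or sgRUVBL1 replicates 1, 2 or 4 (limma adjusted p from 0.0509 to 0.0908) and that of CCDC134 without sgRUVBL2 replicate 1 (0.0583) or sgRUVBL1 replicate 2 (0.054). Without sgRUVBL2 replicate 2 the contrast called 361 genes, 321 of them lower, so a count of 4 does not show that the knockouts act alike. For named genes the contrast was -0.02 for KRT5 and CDC20, -0.11 for KISS1, 0.004 for IGFL1 and 0.07 for SERPINB5, with standard errors of 0.08, 0.06, 0.20, 0.30 and 0.08 in that order.

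Against sgKLF5, 4952 genes passed (40%), 1683 higher (13.6%) and 3269 lower (26.4%), and scaling by the median of ratios gave 2547 and 2454. The 5 largest differences with no overlap upward were those of CD52, KISS1, LEMD1, CLIC3 and IGFL1, from 3.38 to 2.87. CD52, a glycoprotein best known from lymphocytes, held 28.2, 31.4 and 27.3 TPM in sgRUVBL2 and 1.80, 0, 2.85 and 5.21 TPM in sgKLF5. CLIC3, an intracellular chloride channel protein, held 32.6, 43.1 and 36.9 TPM in sgRUVBL2 and 2.12, 4.42, 4.05 and 6.58 TPM in sgKLF5, with 20.1 to 45.3 TPM in sgRosa. The largest downward differences were those of CCL2, PRSS2, CXCL6, CSF3 and CXCL1. PRSS2, a trypsinogen whose reads can be shared with its paralogs, held 3.31, 1.94 and 5.59 TPM in sgRUVBL2 and 105 to 120 TPM in sgKLF5. The chemokine CCL2 held 0.842, 0 and 0.22 TPM in sgRUVBL2 and 36.5 to 46.9 TPM in sgKLF5, and was listed at 0 in all sgRosa libraries. None of these 5 downward genes passed the test in sgRUVBL2 against sgRosa with all 3 knockout libraries. Without replicate 3, CSF3 (0.78, limma adjusted p = 0.0266) and CXCL1 (0.87, limma adjusted p = 0.0121) were called higher and the others were not. CSF3 was low, with means over all libraries of 0.189 TPM in sgRosa and 0.745 TPM in sgRUVBL2.

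Against the mean of sgCDK1 and sgRpa3, 2561 genes passed (20.7%), 1070 higher (8.64%) and 1491 lower (12%). The largest upward differences were those of IL24, IL20, SPRR2E, STC1 and SPRR2F, of which the SPRR2 genes are near-identical copies that can share reads. IL24 held 11.1, 14.1 and 13.7 TPM in sgRUVBL2, 0.751 and 0.887 TPM in sgCDK1 and 2.91 and 3.68 TPM in sgRpa3, against 5.10 to 6.45 TPM in sgRosa. The sgRUVBL2 libraries lay above all sgRosa libraries and those of sgCDK1 and sgRpa3 below them, and the call against sgRosa was lost without replicate 3 (limma adjusted p = 0.0715). STC1, the hormone stanniocalcin, held 43.6, 46.3 and 35.0 TPM in sgRUVBL2 and 7.87 to 24.9 TPM in sgCDK1 and sgRpa3. The largest downward differences were those of TNNT3, OLFML2A, TNNI2, HOTS and LOC112267876. TNNI2, a fast muscle troponin, held 31.0, 43.4 and 12.4 TPM in sgRUVBL2, 63.5 and 62.3 TPM in sgCDK1 and 124 and 137 TPM in sgRpa3.

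The same comparison was made in T3M-4, a basal-like line, and AsPC-1, a classical line, each within its own table. RUVBL2 knockout gave 5208 higher (39.3%) and 2014 lower genes in T3M-4 (15.2%), and 3936 higher (32.2%) and 1345 lower in AsPC-1 (11%), or 54.5% and 43.2% of all genes in either direction. Of the 529 genes higher in BxPC-3, 416 of 507 tested were higher in T3M-4 (82.1%) and 313 of 454 in AsPC-1 (68.9%). Of the 679 lower in BxPC-3, 362 of 669 were lower in T3M-4 (54.1%) and 279 of 653 in AsPC-1 (42.7%). For the genes called with and without replicate 3, these shares were 87.7%, 71.6%, 74.4% and 57.7%. In all 3 lines 261 genes were higher and 200 lower, with RND1, KISS1, ENKUR and CXCL8 among the rises. KRT5 fell by 2.00 in T3M-4, and SERPINB5 by 0.56 in T3M-4, while in AsPC-1 SERPINB5 gave -0.01 (limma adjusted p = 0.982). These differences between lines were not tested.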

How the data were processed

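The authors quantified poly-A RNA, read from one end, with kallisto on hg38, dropped transcripts of low abundance (limit not given in the sources used here), gathered them by gene with tximport and deposited TPM. Each library adds up to 1e+06, so depth is unknown and no counting interval is given. Groups came from the sample labels.

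For the 12380 genes of at least 1 TPM on average, log2(TPM + 1) was modelled by group over the experiment's 19 libraries with limma-trend 3.58.1 in R 4.3.3, with Benjamini-Hochberg adjustment over all genes at 0.05. limma was used because the authors' count test needs reads. Fold changes on this scale understate those of low genes. The other knockouts were direct contrasts in that fit, and the other lines were fitted alone. Same-numbered sgRUVBL2 and sgRUVBL1 libraries deviated together (correlations 0.216, 0.303 and 0.46), so a block on the number was also fitted. With sgRosa the correlations were 0.015, -0.155 and -0.053, and with sgKLF5 0.011, 0.028 and -0.069. The labels do not say that equal numbers mark pairs.

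Genes named are the 12 largest rises and falls past the threshold, with no overlap of libraries and at least 5 TPM in either group, the 5 largest each way of each direct contrast, up to 4 called members of each list, any member of a list of 20 or fewer, and RUVBL2, RUVBL1, KLF5 and SERPINB5. Further genes named (such as CXCL1, CDC20, IL1B and the rest of the lists' calls) and their contrasts were chosen after their values were seen. Members and lists were chosen with earlier results of these data known. GC content and length came from GENCODE v44 transcripts (95.09% of genes). Heat shock genes (6 of 21 with values, none called) and mitochondrially encoded genes (none with values) are not described, and some results are not reported here. The alternatives changed the pseudocount, filter, scaling, groups fitted, block or libraries, and 3 were added after seeing the data.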

Additional observations from a re-analysis of the deposited data

Results flagged for a closer look

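Of 134 sets of 4 sgRosa values examined for the genes named, 6 had a library far from the other 3 by Dixon's ratio at the 95% level, and chance gives about 1 in 20. These were KRT86 in replicate 1 (1.26 TPM), CAD in replicate 2 (32.3 TPM), IL1B in replicate 3 (168 TPM), KRT17 in replicate 2 (8600 TPM), COL17A1 in replicate 2 (389 TPM) and PRKDC in replicate 1 (108 TPM).

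Among the genes examined, those past the threshold with RUVBL2 knockout in BxPC-3 whose knockout and control libraries lay the other way round in another line with no overlap were TRIB3 (0.45 in BxPC-3 and -0.35 in T3M-4), CLDN3 (0.95 and -1.06 in AsPC-1), KRT23 (0.82 and -1.89 in AsPC-1) and MMP7 (0.77 and -0.53 in AsPC-1). COL7A1 also passed in opposite directions (-0.93 and 0.54 in AsPC-1), with libraries that overlapped in AsPC-1. Over all genes, of the 529 higher in BxPC-3 5 were lower in T3M-4 and 15 in AsPC-1, and of the 679 lower 26 were higher in T3M-4 and 19 in AsPC-1. The differences between the lines were not tested.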

How the results depend on the processing

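The number of genes called in sgRUVBL2 against sgRosa (1208) ranged from 605 (without sgRosa replicate 2) to 2282 (without sgRUVBL2 replicate 2) when a library was left out, and was 1 with the groups alone, 1932 with each library's GC and length trend removed (1015 higher, 917 lower) and 87 with the groups alone and no sgRUVBL2 replicate 3, the latter 2 chosen after seeing the data. Against sgRUVBL1 (4) the range was 2 to 361, with 9 after median-of-ratios scaling, 1 with the groups alone and 1 without replicate 3 as well. Against sgKLF5 (4952) it was 4241 to 5333. Against sgCDK1 and sgRpa3 (2561) it was 1261 to 3700, with 425 for the groups alone and 1265 without replicate 3 as well. With the replicate number as a block, the counts were 1272, 4, 5172 and 2151. Apart from NIT2 the block changed no call among the genes given for sgRUVBL1, the contrast where same-numbered libraries deviated together. SERPINB5 (0.01, and -0.042 to 0.101 when a library was left out) turned to -0.012 without sgRosa replicate 2, -0.037 without sgRUVBL2 replicate 2, -0.042 without replicate 3 (also with the groups alone), -0.007 with the trend removed and -0.09 with scaling and no replicate 3, and SMG1 (-0.06, and -0.372 to 0.203) to 0.003, 0.203, 0.203 and 0.155 with scaling, without replicate 3, with the groups alone as well and with scaling as well, none past the threshold. Of 120 genes named against sgRosa, 65 kept direction and side of the threshold in every planned setting except the groups alone, 59 of them called. The cause was not tested. Depth is unknown, so what it limits cannot be given.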
